A study of Rattus norvegicus with 6 samples.

Results

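Of the 40154 genes in the deposited count table, 9 encode the extracellular matrix proteins described here, chosen by name: fibronectin (Fn1), tenascin-C (Tnc), periostin (Postn), osteonectin (Sparc), thrombospondin 1 (Thbs1), thrombospondin 2 (Thbs2), osteopontin (Spp1), elastin (Eln) and fibrillin 1 (Fbn1). All 9 were among the 14852 genes with enough counts to be tested. The cells were atrial fibroblasts from Sprague-Dawley rats aged 1 to 3 days, separated from myocytes by preplating for 1.5 h. They were transfected with a negative control siRNA (si-NC, 3 libraries) or with siRNA against GPD1L (si-GPD1L, 3 libraries) and collected 24 h later for mRNA sequencing. GPD1L is glycerol-3-phosphate dehydrogenase 1-like protein, and the study asked whether its silencing changes fibroblast activation and matrix synthesis. The labels do not say whether the number in each si-GPD1L name stands for a replicate or for another siRNA, nor whether the libraries came from separate cultures. P-values therefore measure the spread between these samples, which may be technical.

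Fibronectin, fibrillin and elastin are structural. Fibronectin forms the first fibrillar network that fibroblasts assemble and binds them through integrins such as α5β1. Fibrillin 1 builds the microfibrils on which elastin is laid down, and these microfibrils also hold latent TGF-β. Tenascin-C, periostin, osteonectin, the thrombospondins and osteopontin are matricellular proteins, which sit in the matrix but act mainly on cells, proteases and growth factors and are known to be induced in injured and fibrotic heart. Thrombospondin 1 can activate latent TGF-β, whereas thrombospondin 2 is known mainly as an inhibitor of angiogenesis and a regulator of collagen fibril assembly.

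The library totals ran from 16892255 to 20149732 counts. Gpd1l, the siRNA target, had 262, 333 and 314 normalized counts (counts brought to one common library size by TMM) in si-NC, against 220.5, 208 and 303 in the group labelled si-GPD1L. Replicate 3 of the si-GPD1L group lay inside the si-NC range. The log2 fold change of Gpd1l was -0.31 ± 0.15 (SE, adjusted p = 0.234, edgeR quasi-likelihood test). It was -0.50 without si-GPD1L replicate 3 (adjusted p = 0.0733) and between -0.41 and -0.21 on leaving out any other library (adjusted p from 0.0604 to 0.579). The knockdown therefore did not pass the test at the mRNA level, and the groups below are named by their labels. Replicate 1 of si-NC stood apart from the other si-NC libraries: over 11886 genes the SD of the log2 difference was 0.288 and 0.320 against them and 0.199 between the other two, compared with 0.182 to 0.206 within si-GPD1L. Among the cell type marker lists given below, the fibroblast list had the highest sum in every library. It summed to at least 1220225 normalized counts, and no other cell type list to more than 132954. Col1a1 alone took 3.39 to 4.99% of the counts.

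The 9 genes together took 2.83, 3.28 and 3.40% of the counts of each si-NC library and 3.27, 3.35 and 3.56% of each si-GPD1L library. Their levels were compared in TPM, a transcript abundance that corrects for gene length and library size. On log2(TPM + 1) values all 9 genes had higher log2 fold changes than by normalized counts. The levels in TPM therefore serve to compare genes within a group, not the groups. Sparc was the highest with 7637 ± 420 TPM in si-NC (SD, n = 3), the rank of 8 among all genes. Eln had 3683 ± 691 TPM, Postn 2534 ± 145 TPM and Fn1 2497 ± 540 TPM. Thbs1 had 1731 ± 249 TPM and Fbn1 805 ± 186 TPM. The 3 lowest were Spp1 with 186 ± 17.1 TPM, Tnc with 145 ± 16.1 TPM and Thbs2 with 123 ± 22.4 TPM, which still ranked 1259 among all genes. In si-NC the library values of neighbours in this order overlapped for Postn and Fn1, for Fn1 and Thbs1, and for Tnc and Thbs2, and for no others. In the si-GPD1L libraries the levels were 7636 ± 250 TPM for Sparc, 3660 ± 679 for Eln, 3257 ± 78.3 for Fn1, 2374 ± 208 for Postn, 2171 ± 68.6 for Thbs1, 1065 ± 17.6 for Fbn1, 217 ± 24.7 for Spp1, 148 ± 12.5 for Tnc and 90.1 ± 16.6 for Thbs2. There Fn1 stood above Postn in every library, and the neighbours that overlapped were Eln and Fn1, and Postn and Thbs1.

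**Figure D1:**
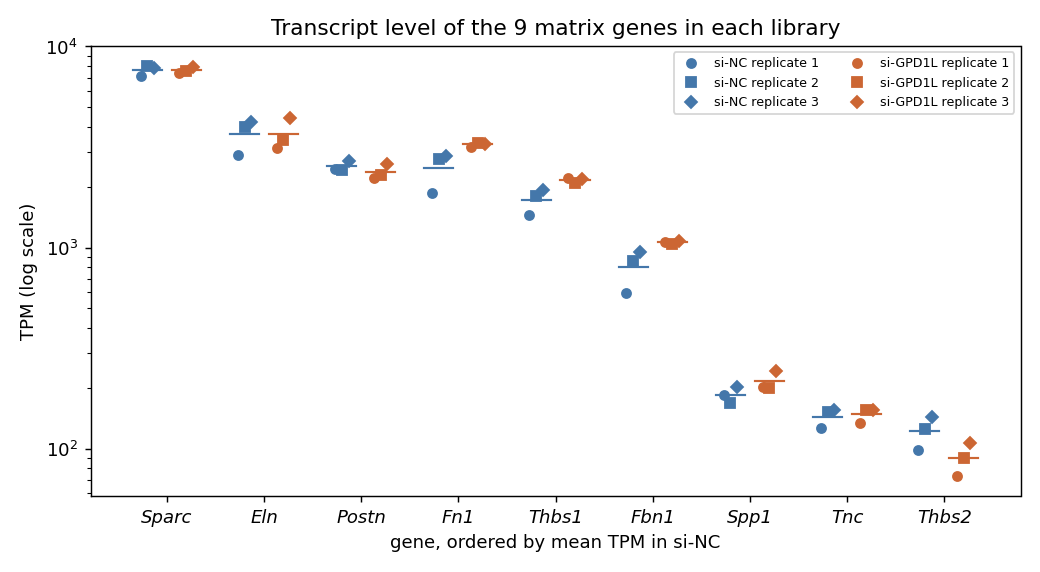
Level of each of the 9 genes in TPM on a log axis, with one point per library and si-NC and si-GPD1L in separate colours. Sparc lies highest, with means of 7637 TPM in si-NC and 7636 TPM in si-GPD1L, and Thbs2 lowest, with 123 and 90.1 TPM.

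Thbs2 fell in the si-GPD1L libraries, and it was the only one of the 9 genes with an adjusted p under 0.05 (1 of 9, against 6.36% of all genes tested in either direction and 2.33% called lower). Fn1, Fbn1 and Thbs1 were higher in every si-GPD1L library than in any si-NC library, at 124, 126 and 119% of the si-NC mean, but missed the threshold after adjustment. Unadjusted p-values were under 0.05 for 4 of the 9 genes, against 22.4% of all genes tested. None of the 9 had an absolute log2 fold change over 1, whereas 1.62% of all genes tested passed both thresholds. The groups did not overlap for 5 of the 9 genes, 3 of them higher and 2 lower, against 29.0% of all genes tested. The median log2 fold change of the 9 was -0.045, within a range of -0.53 to 0.33, and that of all genes tested was -0.0049. Without si-NC replicate 1, 4 of the 9 genes were called (Thbs2, Fn1, Thbs1 and Fbn1). Over all genes that fit called 1531, against 945 with every library kept. Fbn1 alone was called when si-NC replicate 3 was dropped (1451 over all genes). Thbs2 alone was called when si-GPD1L replicate 3 was dropped (591 over all genes). None of the 9 was called when si-NC replicate 2, si-GPD1L replicate 1 or si-GPD1L replicate 2 was left out. Those fits called 550, 366 and 361 over all genes. The change from 1 to 4 or to 0 thus came with a shift in calls over all genes. The DESeq2 Wald test called 2 of the 9, Thbs2 and Fbn1, and 1175 over all genes.

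**Figure D2:**
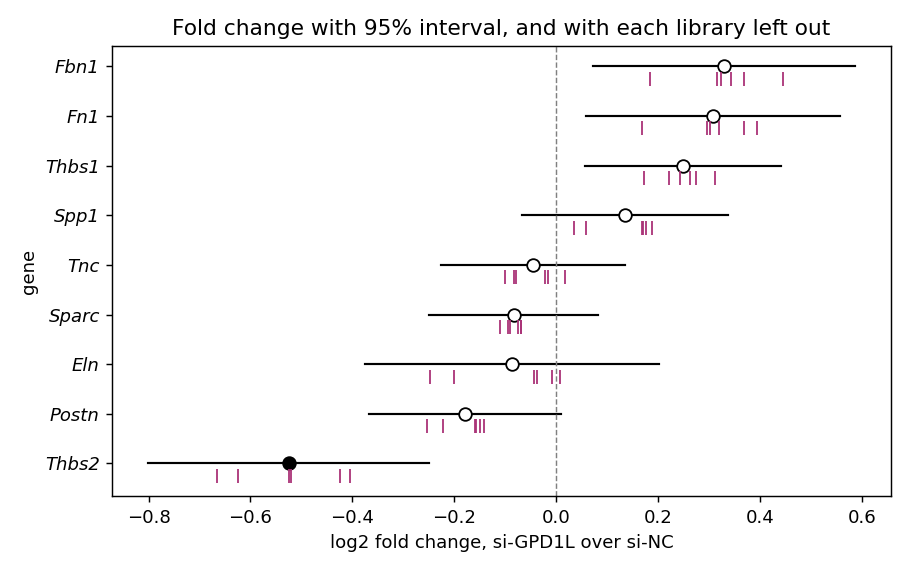
Log2 fold change (si-GPD1L over si-NC) of each of the 9 genes with its 95% interval, with ticks for the value when each library is left out and a filled point for an adjusted p under 0.05. Only Thbs2, at -0.53 with an interval from -0.80 to -0.25, is filled, and Fbn1 has the highest value, 0.33.

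The thrombospondins had log2 fold changes of opposite sign. Thbs2 (rn6 chr1:56653929-56683571, minus strand) had 4697, 5523 and 6219 normalized counts in si-NC and 3127, 3791 and 4504 in si-GPD1L, so that every si-GPD1L library lay below every si-NC library. The means were 5480 ± 762 and 3807 ± 688 (SD, n = 3 each), a log2 fold change of -0.53 ± 0.13 (SE, adjusted p = 0.0302), or 69.5% of the si-NC level with a 95% interval from 57.4 to 84.2%. The call was lost on leaving out si-NC replicate 2 (-0.52, adjusted p = 0.0886), si-NC replicate 3 (-0.42, 0.0518), si-GPD1L replicate 1 (-0.40, 0.152) or si-GPD1L replicate 2 (-0.52, 0.143), and it was lost on log2(TPM + 1) values with limma (-0.44, 0.129). Leaving out si-NC replicate 1, the library that stood apart, gave -0.63, and leaving out si-GPD1L replicate 3, the library with the most Gpd1l in its group, gave -0.67, both with the call kept. Thbs1 (chr3:109862120-109873466, plus strand) had 43387, 49707 and 52839 normalized counts in si-NC and 59804, 55539 and 58070 in si-GPD1L. Its groups did not overlap, but replicate 3 of si-NC came close to the si-GPD1L range. The log2 fold change was 0.25 ± 0.089 (SE, adjusted p = 0.119 by edgeR), or 119% of the si-NC level with an interval from 104 to 136%. Without si-NC replicate 1 the value was smaller, 0.17, with an adjusted p of 0.0229. The thrombospondins can also be compared inside each library by their raw counts, so that no normalization enters. There were 9.24, 9.0 and 8.50 Thbs1 counts per Thbs2 count with si-NC and 19.1, 14.6 and 12.9 with si-GPD1L. The ratio was 1.72-fold higher in si-GPD1L, with mean log2 ratios of 3.15 ± 0.062 and 3.94 ± 0.29 (SD, n = 3 each). The exact two-sided permutation p was 0.10, the smallest that 3 against 3 libraries allow. It was fixed by the values above, where Thbs1 was higher and Thbs2 lower in every si-GPD1L library, so it adds no support. The difference in log2 ratio of 0.78 ran from 0.63 to 0.91 when each library was left out.

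**Figure D3:**
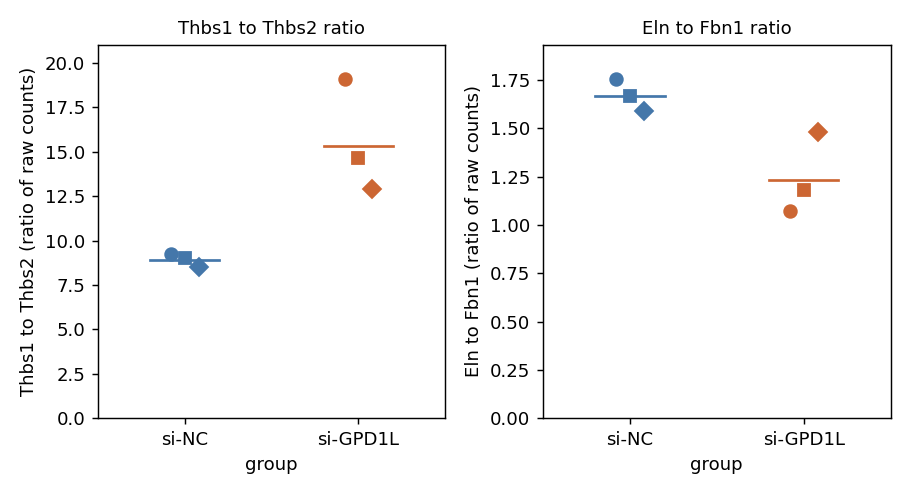
Ratio of raw counts in each library for Thbs1 to Thbs2 and for Eln to Fbn1, with a line at each group's mean taken on the log2 scale. The Thbs1 to Thbs2 ratio lies between 8.50 and 9.24 in si-NC and between 12.9 and 19.1 in si-GPD1L, and the Eln to Fbn1 ratio lies between 1.59 and 1.76 in si-NC and between 1.07 and 1.48 in si-GPD1L.

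Fibronectin and fibrillin 1 had the largest spread between the si-NC libraries, with coefficients of variation of 17.4 and 18.9%. Fn1 (chr9:78900111-78969018, minus strand) had 129528, 175530 and 180814 normalized counts in si-NC and 196470.2, 203527 and 201503 in si-GPD1L. All 3 si-GPD1L libraries lay above si-NC, and the si-NC replicate 1 value was far below the other si-NC values. The log2 fold change was 0.31 ± 0.11 (SE, adjusted p = 0.135 by edgeR), or 124% of the si-NC level with an interval from 104 to 147%. Fbn1 (chr3:117569708-117766160, minus strand) had 48979, 65469.6 and 71645 normalized counts in si-NC and 78281, 76377 and 79179 in si-GPD1L. It showed the same arrangement, with si-NC replicate 1 lowest and the si-GPD1L libraries close together above. Its log2 fold change was 0.33 ± 0.12 (SE, adjusted p = 0.123), or 126% of the si-NC level with an interval from 105 to 150.2%. The value of both genes depended on si-NC replicate 1: without it, the log2 fold change was 0.17 for Fn1 (adjusted p = 0.00362) and 0.18 for Fbn1 (adjusted p = 0.0117), a smaller difference that passed the threshold. Fbn1 also passed without si-NC replicate 3 (0.44, adjusted p = 0.0311).

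Elastin, which is deposited on fibrillin microfibrils, shared this arrangement only in part. Its si-NC replicate 1 was also well below the other si-NC libraries, but its si-GPD1L libraries did not lie together above si-NC. Eln (chr12:24978478-25021864, plus strand) had 86022, 109007 and 113743 normalized counts in si-NC and 83709.7, 90111 and 117140.4 in si-GPD1L, and the groups overlapped. The log2 fold change of -0.086 ± 0.13 (SE, adjusted p = 0.755 by edgeR) had an interval from -0.37 to 0.20, that is from 77.1 to 115% of the si-NC level. On leaving out each library it ran from -0.25 without si-GPD1L replicate 3 to 0.0078 without si-GPD1L replicate 1. There were 1.76, 1.67 and 1.59 Eln counts per Fbn1 count in si-NC and 1.07, 1.18 and 1.48 in si-GPD1L. The log2 ratio was lower in every si-GPD1L library, by a mean difference of -0.44 (0.74 ± 0.073 in si-NC and 0.30 ± 0.24 in si-GPD1L, SD, n = 3 each), with an exact two-sided permutation p of 0.10, again the smallest possible. On leaving out each library it ran from -0.57 to -0.34.

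Among the other matricellular genes of the set, none passed the test (edgeR and the DESeq2 Wald test alike, with unadjusted p-values of 0.0617 or more by edgeR). Sparc, a collagen-binding glycoprotein, (chr10:40742390-40764232, minus strand) had 125628, 129506 and 124697 normalized counts in si-NC and 116889.5, 118080.4 and 123590.4 in si-GPD1L. All si-GPD1L values lay below si-NC by a narrow margin, with a log2 fold change of -0.083 ± 0.076 (SE, adjusted p = 0.566) and an interval from 84.1 to 106% of the si-NC level. On log2(TPM + 1) values the difference was 0.00087. Postn, which binds collagen and integrins and marks activated fibroblasts, (chr2:143656820-143688087, plus strand) had 67165, 61299 and 67019 normalized counts in si-NC and 54364, 55146 and 63259 in si-GPD1L. Replicate 3 of si-GPD1L overlapped the si-NC range, and the log2 fold change was -0.18 ± 0.087 (SE, adjusted p = 0.249), with an interval from 77.6 to 101% of the si-NC level. Tnc, an anti-adhesive glycoprotein of remodelling tissue, (chr5:79789686-79874555, minus strand) had 7967, 8916 and 8976 normalized counts in si-NC and 7594, 8723 and 8741 in si-GPD1L. The groups overlapped, with a log2 fold change of -0.045 ± 0.083 (SE, adjusted p = 0.800) whose interval ran from -0.23 to 0.14. Its sign turned without si-GPD1L replicate 1 (0.017) and on log2(TPM + 1) values (0.038). Spp1, an integrin ligand and cytokine, (chr14:6673686-6679965, minus strand) had 2414, 2060.3 and 2437 normalized counts in si-NC and 2397, 2336 and 2859 in si-GPD1L. These groups overlapped too, with a log2 fold change of 0.14 ± 0.093 (SE, adjusted p = 0.426) and an interval from -0.068 to 0.34. Leaving out si-GPD1L replicate 3 gave 0.035 for Spp1, and leaving out si-NC replicate 2 gave 0.060.

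**Figure D4:**
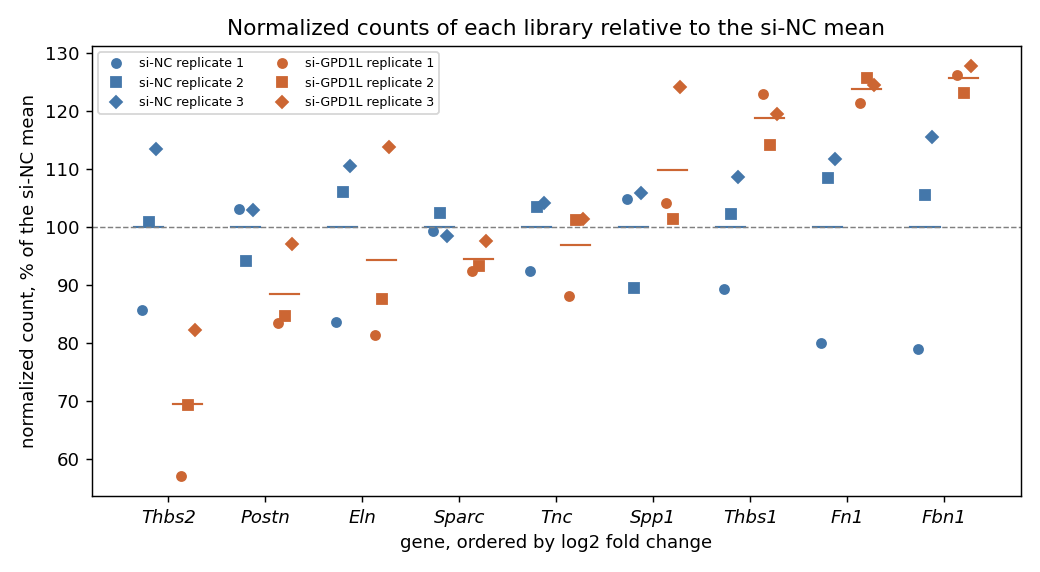
Normalized counts of each of the 9 genes in each library as a percent of the gene's si-NC mean, with horizontal bars at the group means. Fn1, Fbn1 and Thbs1 lie higher in all si-GPD1L libraries (means of 200500.0, 77945 and 57804 normalized counts against 161957, 62031 and 48644), Thbs2 and Sparc lie lower, and the other 4 genes overlap.

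The spread between libraries differed widely among the 9 genes. The coefficient of variation ran from 2.01 to 18.9% in si-NC and from 1.81 to 18.3% in si-GPD1L, with medians of 9.90 and 7.86%. For the 3664 tested genes averaging 1000 or more normalized counts, the medians were 7.53 and 3.52%. The lowest si-NC library was replicate 1 for 6 of the 9 genes, replicate 2 for 2 and replicate 3 for 1. The highest si-GPD1L library was replicate 3 for 7 of the 9, replicate 2 for Fn1 and replicate 1 for Thbs1. Separate transcripts of a gene gave nearly the same values as the gene. Of 32 annotated transcripts of the 9 genes, all were tested and 1 was called, the single transcript of Thbs2 (-0.54 ± 0.12, SE, adjusted p = 0.0233 by edgeR), against 5.89% of the 37822 transcripts tested. The 11 transcripts of Fn1 had log2 fold changes between 0.29 and 0.30, the 4 of Fbn1 between 0.31 and 0.33 and the 6 of Tnc between -0.068 and -0.054. Reads shared by isoforms can be counted in each of them, so these values do not separate the splice forms.

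The 250 bases before the annotated start are shown for Thbs1, Fbn1 and Sparc, which are the genes with groups that did not overlap and with a sequence among the RefSeq promoters used here (6 of the 9 genes had one). Each was searched on both strands for 5 short motifs: the TATA box TATAAA, the AP-1 site TGACTCA, the TEAD site GGAATG, the GC box GGGCGG and the interferon response core AAANNGAAA. Capitals mark the matches, and where the match is on the other strand the capitals show its complement. Coordinates are in the RefSeq build GRCr8, not the rn6 of the counts, and bases are counted back from -1 just before the start. Sequences run in the direction of transcription, on the plus strand for Thbs1 (chr3:125510000-125510249) and on the minus strand for Fbn1 (chr3:133203391-133203640) and Sparc (chr10:40038817-40039066).
Thbs1: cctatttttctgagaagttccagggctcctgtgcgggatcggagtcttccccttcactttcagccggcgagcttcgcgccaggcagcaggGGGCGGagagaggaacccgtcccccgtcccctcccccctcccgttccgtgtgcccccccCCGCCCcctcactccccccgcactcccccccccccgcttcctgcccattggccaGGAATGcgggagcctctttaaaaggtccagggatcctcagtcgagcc
Fbn1: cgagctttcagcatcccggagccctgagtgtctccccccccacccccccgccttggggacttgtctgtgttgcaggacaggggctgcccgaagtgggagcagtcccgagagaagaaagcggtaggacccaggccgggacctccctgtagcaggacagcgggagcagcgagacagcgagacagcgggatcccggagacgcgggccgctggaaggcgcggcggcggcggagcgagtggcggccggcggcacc
Sparc: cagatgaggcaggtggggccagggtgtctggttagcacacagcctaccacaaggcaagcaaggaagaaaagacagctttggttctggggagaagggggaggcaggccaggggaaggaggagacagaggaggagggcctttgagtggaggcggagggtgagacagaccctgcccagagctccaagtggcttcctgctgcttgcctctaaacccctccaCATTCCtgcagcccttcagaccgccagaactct

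The Thbs1 window had a GC box at -160 to -155 and, on the other strand, at -101 to -96, and a TEAD site at -47 to -42. The Sparc window had a TEAD site on the other strand at -33 to -28. The Fbn1 window had none of the 5 motifs. A TATAAA was present in the windows not printed, at -44 to -39 in Postn, at -208 to -203 in Tnc and at -204 to -199 in Spp1, and Tnc also had a GC box at -248 to -243. None of the 6 windows held the AP-1 site or the interferon response core. Of 33469 rat windows of this length, 12.9% held the TATA box, 4.05% the AP-1 site, 12.1% the TEAD site, 30.5% the GC box and 10.3% the interferon response core, so each match is also common among other genes. The GC content was 67.6% for Thbs1, 71.2% for Fbn1 and 60.0% for Sparc, against a median of 51.2% over all windows.

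Other matricellular genes were nearly evenly divided. Of 22 listed, 17 were tested, 1 rose and 1 fell, against 6.36% of all genes tested called in either direction, and the median log2 fold change was 0.0019. Wisp2, a CCN family gene, rose from 6128 ± 327 to 7607 ± 143 normalized counts (SD, n = 3), a log2 fold change of 0.31 ± 0.072 (SE, adjusted p = 0.0242 by edgeR). Smoc2, a calcium-binding relative of Sparc, fell from 129 ± 5.46 to 66.8 ± 12.8 normalized counts, a log2 fold change of -0.95 ± 0.17 (SE, adjusted p = 0.00565). Smoc2 passed on leaving out each library, but Wisp2 passed in only 2 of the 6 such fits, without si-NC replicate 1 or si-NC replicate 3, and reached adjusted p-values of up to 0.130. Without si-NC replicate 1, 7 of these genes passed, but the number called over all genes also rose in that fit, from 945 to 1531. Ctgf and Cyr61, the CCN genes known as targets of TGF-β and of YAP and TEAD, did not pass the main test. Their groups did not overlap, which held for 29.0% of all genes tested. Ctgf had 50776, 47861 and 43857 normalized counts in si-NC and 62627, 53946 and 52395 in si-GPD1L (log2 fold change 0.25 ± 0.093, SE, adjusted p = 0.139). Cyr61 had 7056, 7332 and 6709 in si-NC and 8729, 7985 and 7752 in si-GPD1L (0.21 ± 0.076, SE, adjusted p = 0.119). On log2(TPM + 1) values with limma both passed (adjusted p = 0.0484 for Ctgf and 0.0400 for Cyr61). Ctgf also passed by edgeR with no filter beyond 1 count (adjusted p = 0.0290). Both passed without si-NC replicate 1, Ctgf at 0.30 with an adjusted p of 0.00385 and Cyr61 at 0.22 with 0.0298. Neither passed on leaving out any other library, and without si-GPD1L replicate 1 the values were 0.16 for Ctgf (adjusted p = 0.477) and 0.16 for Cyr61 (adjusted p = 0.405).

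The genes that work with Eln and Fbn1 in the elastic fibre moved in both directions. Of 19 listed, 18 were tested, 2 rose and 3 fell, beside the 6.36% called among all genes tested, with a median log2 fold change of 0.049. Fbln2, a fibulin of basement membranes and elastic fibres, rose from 16499 ± 1199 to 24164 ± 2425 normalized counts (0.55 ± 0.091, SE, adjusted p = 0.00314 by edgeR). Ltbp2, which binds fibrillin 1, rose from 14006 ± 1849 to 20876 ± 2706 (0.58 ± 0.11, SE, adjusted p = 0.00983). Fbln1, which binds fibronectin and elastin, fell from 3734 ± 521 to 2482 ± 453 (-0.59 ± 0.13, SE, adjusted p = 0.0172). Efemp1 (fibulin 3) fell from 65.5 ± 11.3 to 32.8 ± 9.16 (-1.0 ± 0.25, SE, adjusted p = 0.0349) and Emilin2 from 568 ± 59.1 to 431 ± 38.0 (-0.40 ± 0.10, SE, adjusted p = 0.0414). Fbln2 passed on leaving out each library, Ltbp2 without any one but si-GPD1L replicate 1 (adjusted p = 0.0728), Fbln1 and Efemp1 in 3 of the 6 such fits and Emilin2 in 2. Lox, the enzyme that crosslinks elastin and collagen, had a log2 fold change of -0.049 ± 0.078 (SE, adjusted p = 0.763) and was named after its value was seen.

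Of 22 listed receptors of matrix proteins, all were tested, 2 rose and none fell (edgeR). The share called was near the 6.36% called among all genes tested, and the median log2 fold change was 0.026. Of the 22, 8 had an unadjusted p under 0.05, 2 of them lower, against 22.4% of all genes tested. Cd47, a receptor of thrombospondin 1, rose from 1924 ± 99.2 to 2527 ± 61.7 normalized counts (0.39 ± 0.068, SE, adjusted p = 0.00455) and passed on leaving out each library. Itga5, the α chain of the main fibronectin receptor, rose from 3313 ± 201 to 4238 ± 221 (0.36 ± 0.075, SE, adjusted p = 0.0146) and failed without si-GPD1L replicate 1 (adjusted p = 0.109) or replicate 2 (adjusted p = 0.0868). Its partner Itgb1, also named after its value was seen, had a log2 fold change of -0.076 ± 0.081 (SE, adjusted p = 0.635). The DESeq2 Wald test called 4 of the 22, but it also called more over all genes, 1175 against 945.

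**Figure D5:**
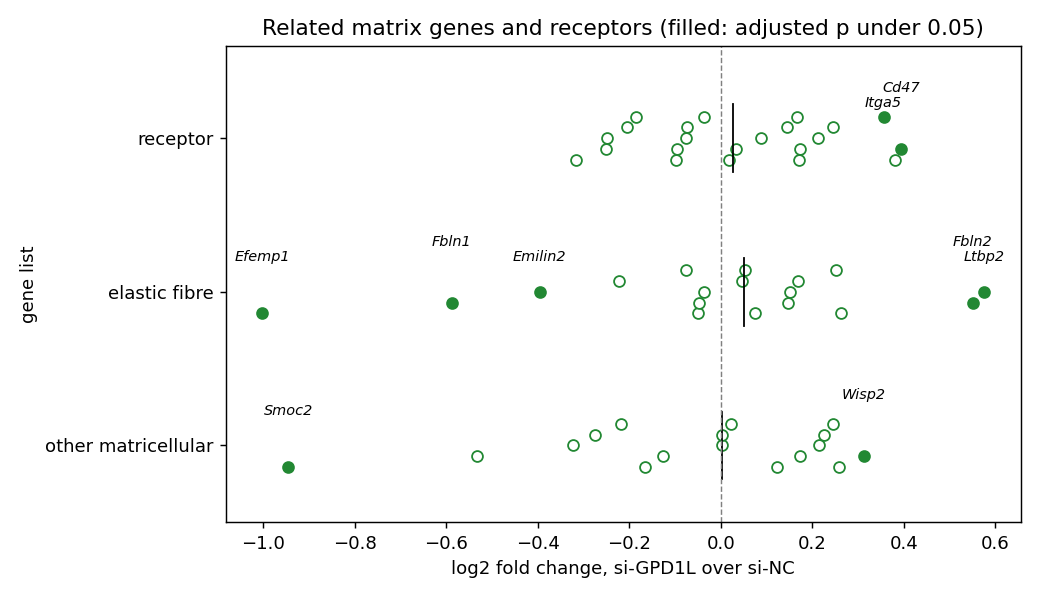
Log2 fold change (si-GPD1L over si-NC) of each tested gene in the lists of other matricellular genes, elastic fibre genes and receptors, with a bar at each list's median and filled points for an adjusted p under 0.05. The medians are 0.0019, 0.049 and 0.026, and the filled points run from -1.0 (Efemp1) to 0.58 (Ltbp2).

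By Pearson correlation of log2 normalized counts over the 6 libraries, the genes with a pattern most like that of Thbs2, among 10087 genes averaging 100 or more normalized counts, were Fbln1 (r = 0.999), Stac2 (r = 0.996) and Itga8 (r = 0.995). All 6 libraries enter each value and the groups are part of it, so these are descriptions. Fbln1 had 3181, 3803 and 4217 normalized counts in si-NC and 2035, 2471 and 2941 in si-GPD1L, in the same order as Thbs2. Stac2 fell with a log2 fold change of -0.63 (adjusted p = 0.0337 by edgeR), and Itga8, an integrin chain that also stands in the receptor list, had -0.32 (adjusted p = 0.0557).

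Markers listed for some cell types and for the interferon response differed between the groups, whereas the summed counts of macrophage markers overlapped. All 13 tested of 14 endothelial markers had log2 fold changes above 0, with 5 called, beside 6.36% of all genes tested. The 5 were Plvap (1.44), Cdh5 (1.07), Erg (1.00), Pecam1 (0.91) and Tie1 (0.56). The normalized counts of the endothelial markers summed to between 10500.1 and 12630.1 in si-NC libraries and to between 13650.4 and 14079 in si-GPD1L libraries. Plvap and Cdh5 passed on leaving out each library, Erg in 4 of the 6 such fits (adjusted p up to 0.0923), Pecam1 in 3 (up to 0.152) and Tie1 in 2 (up to 0.211). Most of that sum was Eng, with means of 9402 and 10974, whereas Pecam1 had 40.9 and 76.4 normalized counts.

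Of 10 fibroblast markers none was called higher and 2 were called lower, beside 6.36% of all genes tested called in either direction. The 2 were Lum (-0.77) and Dcn (-0.66), small proteoglycans of the matrix. Of the 10, 2 had log2 fold changes above 0. An unadjusted p under 0.05 was found for 5, 3 of them lower, against 22.4% of all genes tested. Col1a1 was higher in every si-GPD1L library than in any si-NC library (0.25, adjusted p = 0.219 by edgeR). The fibroblast markers summed to between 31504 and 41138 TPM with si-NC and between 39005 and 41784 TPM with si-GPD1L. Lum passed on leaving out each library, and Dcn failed without si-GPD1L replicate 1 (adjusted p = 0.0564) or replicate 2 (adjusted p = 0.0842). Of 13 cardiomyocyte markers 3 had log2 fold changes above 0 and the median was -0.13. An unadjusted p under 0.05 was found for 6, 5 of them lower, against 22.4% of all genes tested. Among the 13 edgeR called only Pln (-0.44), beside 6.36% of all genes tested. Pln passed in 3 of the 6 fits that leave out a library (adjusted p up to 0.171). The sums for the cardiomyocyte list were 38311 to 40109 and 34763 to 37957 normalized counts. Of 12 smooth muscle and pericyte markers only Cspg4 (0.80) and Mcam (0.28) had log2 fold changes above 0, and both rose. The median was -0.15. An unadjusted p under 0.05 was found for 5, 3 of them lower, against 22.4% of all genes tested. Of those 3, Des (-0.35) fell after adjustment. Cspg4 passed on leaving out each library, Des in 3 of the 6 such fits (adjusted p up to 0.167) and Mcam only without si-NC replicate 1 (adjusted p up to 0.236 otherwise). Mcam also failed with upper-quartile normalization (adjusted p = 0.0645). The main fit called 3 of these 12 markers, beside 6.36% of all genes tested (945). The DESeq2 Wald test and edgeR's exact test called 5 each, beside 1175 and 1528 over all genes. The smooth muscle and pericyte list had sums of 128909 to 132954 and 118296 to 122583 normalized counts, which did not overlap. Taken in TPM, the sums of this list overlapped, since si-NC ran from 9556 to 10112 and si-GPD1L from 9250 to 9658. The separation of its sums thus depended on the unit. None of 15 macrophage markers was called by edgeR or DESeq2, and 1 was called by edgeR's exact test. An unadjusted p under 0.05 was found for 1, against 22.4% of all genes tested. The macrophage sums were 3241 to 3499 and 2737 to 3953. All 10 interferon-stimulated genes rose and were called, beside 6.36% of all genes tested. Their sums lay between 1425 and 1564 for si-NC and between 20252 and 24581 for si-GPD1L. No marker in these lists was at 0 in every library. In bulk samples fewer cells of a type and less RNA per cell cannot be told apart. The part of these cell types and of the interferon response in the values of the 9 genes was not tested.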

How the data were processed

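mRNA sequencing of rat atrial fibroblasts, 3 libraries labelled si-NC and 3 labelled si-GPD1L, was used. The authors deposited raw read counts for 40154 genes and 55760 transcripts, and TPM values that equal the counts divided by gene length and rescaled to one total. The submitters' processing notes list bcl2fastq, HISAT2 2.1.0, HTSeq 0.12.4 and rn6. The strand setting is not given in the sources used here, so reads of overlapping antisense genes cannot be told apart. All per-sample columns matched a sample by name. Columns of the authors' own comparison (fold changes, p-values and enrichment terms) were not used.

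With R 4.3.3 and edgeR 4.0.16, filterByExpr kept 14852 genes, which were normalized by TMM and compared by the quasi-likelihood F test with Benjamini-Hochberg adjustment over all of them. A gene was called at an adjusted p under 0.05, and the study's further threshold was an absolute log2 fold change over 1. SEs are the log2 fold change divided by the root of F. Library totals were 16892255 to 20149732 counts and the common biological coefficient of variation was 0.0894. Library totals set the counting error, and 0 counts would allow up to 3. Ratios of raw counts were compared by exact permutation with SciPy 1.17.1. DESeq2 1.42.0, other scalings, filters, limma 3.58.1 on log2(TPM + 1), a replicate block and leaving out each library were alternatives. Scripts were tested on simulated data. Promoter windows are RefSeq GRCr8.

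Named genes were all 9 genes, Gpd1l, Cyr61 and Ctgf, the called genes of each related list (at most 6), the 3 genes most correlated with each called one of the 9, and called or most abundant cell type markers. The genes and lists were chosen with earlier results of these data known.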

Additional observations from a re-analysis of the deposited data

How the results depend on the processing

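Of 135 values of the 9 genes under alternatives, 118 kept their direction and their side of the threshold, 5 lost a call, 8 gained one and 4 changed sign. The sign changed for Tnc without si-GPD1L replicate 1 (0.017) and with log2(TPM + 1) (0.038), for Sparc with log2(TPM + 1) (0.00087) and for Eln without si-GPD1L replicate 1 (0.0078). With log2(TPM + 1) all 9 values lay above those of the main fit, which were -0.045 for Tnc and -0.083 for Sparc. On leaving out each library Tnc ran from -0.10 to 0.017, Eln from -0.25 to 0.0078 and Spp1 from 0.035 to 0.19. Thbs2 kept its call in 10 of 15 alternatives, with adjusted p-values from 2.4e-08 to 0.152. Fn1 was called in 2 of 15 (adjusted p 0.00107 to 0.381), Thbs1 in 2 (0.0229 to 0.359) and Fbn1 in 4 (0.00075 to 0.315).

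The number of the 9 genes called, 1 in the main analysis, was 2 by the DESeq2 Wald test, 4 with no filter beyond 1 count, and 0 to 4 on leaving out each library. Over all genes 945 became 1175 by the DESeq2 Wald test, 1528 by edgeR's exact test, 1929 with no filter and 361 to 1531 on leaving out each library. The count past both thresholds, 240, stayed within 164 to 359 (185 to 274 on leaving out each library). The 2 other matricellular genes called became 5 with no filter and 1 to 7 on leaving out each library. The 5 elastic fibre genes became 1 to 6 on leaving out each library. The 2 receptors became 4 by the DESeq2 Wald test, 4 by the exact test, 5 with no filter, 3 with the replicate block and 1 to 5 on leaving out each library. The causes of these shifts were not tested.

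Same-numbered libraries correlated at -0.0144, -0.0060 and 0.0435 in their deviations from the group means, so the numbers were not taken as pairs. With the replicate block 1 of the 9 genes, 921 of all genes at an adjusted p under 0.05, 223 past both thresholds, 2 other matricellular and 5 elastic fibre genes were called, and Mcam lost its call (adjusted p = 0.0599).

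At these depths all 9 genes had over 1000 counts in each library, so the spread between 3 libraries a group, not counting error, sets the precision, and a ratio test over 3 against 3 cannot go below 0.10.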
